A study of Mus musculus with 6 samples.

Results

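The genes described here are 9 genes of MHC class II presentation and of dendritic cells, H2-Aa, H2-Ab1, H2-Eb1, Cd74, Ciita, Siglech, Clec9a, Flt3 and Itgax, taken by name from a table of 23505 gene rows. They were read in RNA-seq data from mouse liver CD4+ T cells purified by flow cytometry, as a sign of antigen-presenting cells in the sort. In the ConA+SIM group, wild-type mice were gavaged with simvastatin at 30 mg/kg, a statin that blocks cholesterol synthesis, and in the ConA group they were gavaged with PBS. All mice, wild type throughout, received an injection of concanavalin A (ConA), a lectin from jack bean that drives T cell activation and an immune hepatitis. Both groups were dosed each day over the 5 days leading to ConA, also at 1 h ahead of the injection, and a last time at 24 h past it. The gate kept cells with CD3 and CD4 and without CD8 and NK1.1, and used no antigen of B cells, macrophages or dendritic cells, as far as the labels say. Each group held 3 samples with 1 library each. The sources used here do not give strain, age or pooling of animals, so a p-value here reflects only how these samples spread, and that spread may be technical.

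MHC class II molecules present peptides from endocytosed protein to CD4+ T cells. Each is a pair of an alpha and a beta chain, and in the mouse the I-A molecule joins H2-Aa with H2-Ab1, while H2-Eb1 encodes the beta chain of I-E. The invariant chain, encoded by Cd74, guides new molecules to endosomes, and Ciita encodes the transactivator that switches the class II genes on. Dendritic cells, B cells and macrophages carry these molecules, and mouse T cells make little of them. Among dendritic cells, Siglech marks the plasmacytoid type, Clec9a a receptor for dead cells on the cross-presenting conventional type, Flt3 the growth factor receptor of their precursors, and Itgax the integrin chain CD11c.

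The promoters of the class II genes share a module of an X box and a Y box, through which Ciita acts. RefSeq promoter windows, 250 bases before to 50 after a gene start, were found for 6 of the 9 genes. The windows of 2 class II genes are printed to show this module, since the levels of these genes are the first result below. They are H2-Aa, chr17:34287774-34288073 on the minus strand, and H2-Eb1, chr17:34305617-34305916 on the plus strand (GRCm38.p6), each written 5′ to 3′ with the X box core GCAAC and the Y box CTGATTGG in capitals:
H2-Aa: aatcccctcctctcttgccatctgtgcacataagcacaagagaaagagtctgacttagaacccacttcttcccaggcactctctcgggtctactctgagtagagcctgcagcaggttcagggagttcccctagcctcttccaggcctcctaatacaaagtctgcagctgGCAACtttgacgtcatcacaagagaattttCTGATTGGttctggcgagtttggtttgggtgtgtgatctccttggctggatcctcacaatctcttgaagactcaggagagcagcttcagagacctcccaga
H2-Eb1: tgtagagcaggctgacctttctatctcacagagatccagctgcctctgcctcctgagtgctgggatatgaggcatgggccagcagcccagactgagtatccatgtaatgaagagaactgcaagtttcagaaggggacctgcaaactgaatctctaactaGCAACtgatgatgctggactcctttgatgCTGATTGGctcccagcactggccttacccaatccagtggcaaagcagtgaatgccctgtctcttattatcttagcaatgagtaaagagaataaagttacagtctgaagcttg

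Both windows held the pair in the same order, with 25 bases between the boxes in H2-Aa and 24 in H2-Eb1. Searched on both strands of 32851 promoter windows, the Y box letters occurred in 4.10% and the X box core in 35.2%. The ordered pair with 15 to 35 bases between was found in 0.0913% of windows, which belonged to 28 genes. Of these, 4 were class II genes (H2-Aa, H2-Eb1, H2-Eb2 and H2-Oa). The X box core overlapped an E box, CANNTG, in H2-Eb1. The gap limits were chosen after these 2 windows were read, and a match is a description of letters, not of a bound site.

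The windows of Siglech, chr7:55767934-55768233 on the plus strand, and Clec9a, chr6:129408612-129408911 on the plus strand (GRCm38.p6), are printed because these were the genes whose groups did not overlap. Capitals mark the E box letters CANNTG, the kind of sequence bound by TCF4, the factor that specifies plasmacytoid dendritic cells:
Siglech: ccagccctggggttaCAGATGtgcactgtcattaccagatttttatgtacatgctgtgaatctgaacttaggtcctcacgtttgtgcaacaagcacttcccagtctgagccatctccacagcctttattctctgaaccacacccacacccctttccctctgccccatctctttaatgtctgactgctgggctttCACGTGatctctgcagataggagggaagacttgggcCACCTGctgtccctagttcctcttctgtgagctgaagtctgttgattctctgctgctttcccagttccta
Clec9a: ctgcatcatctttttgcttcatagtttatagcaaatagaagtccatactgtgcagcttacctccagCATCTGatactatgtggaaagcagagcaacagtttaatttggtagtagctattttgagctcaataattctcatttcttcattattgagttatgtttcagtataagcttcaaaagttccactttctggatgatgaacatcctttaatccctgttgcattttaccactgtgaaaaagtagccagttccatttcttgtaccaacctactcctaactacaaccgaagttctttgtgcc

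The Siglech window held 3 E boxes and the Clec9a window 1, and 72.3% of all windows held at least 1. Neither held the Y box, and both held the X box core letters.

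None of the 9 genes passed the test of ConA+SIM against ConA (edgeR quasi-likelihood test, adjusted p under 0.05). Across the 10509 genes tested, 57 passed, or 0.542%, all of them higher in ConA+SIM. Libraries of a group differed widely, with a common coefficient of variation of 1.12 in the edgeR fit. With 3 libraries per group, a gene that did not pass is therefore not shown to be unchanged. At an unadjusted p under 0.05, 3 of the 9 genes passed (Clec9a, Siglech and H2-Aa), where 8.85% of tested genes did. DESeq2 called Clec9a and Siglech among the 7 of the 9 genes it tested, and it called 5.21% of the genes it tested. Clec9a had 0 counts in all ConA libraries and entered the edgeR test through its ConA+SIM libraries alone. Its place in these counts is therefore no evidence about the 9 genes as a set. Limma-voom called 0 of the 9, with and without sample quality weights, where it called 1.30% and 1.22% of all genes.

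**Figure D1:**
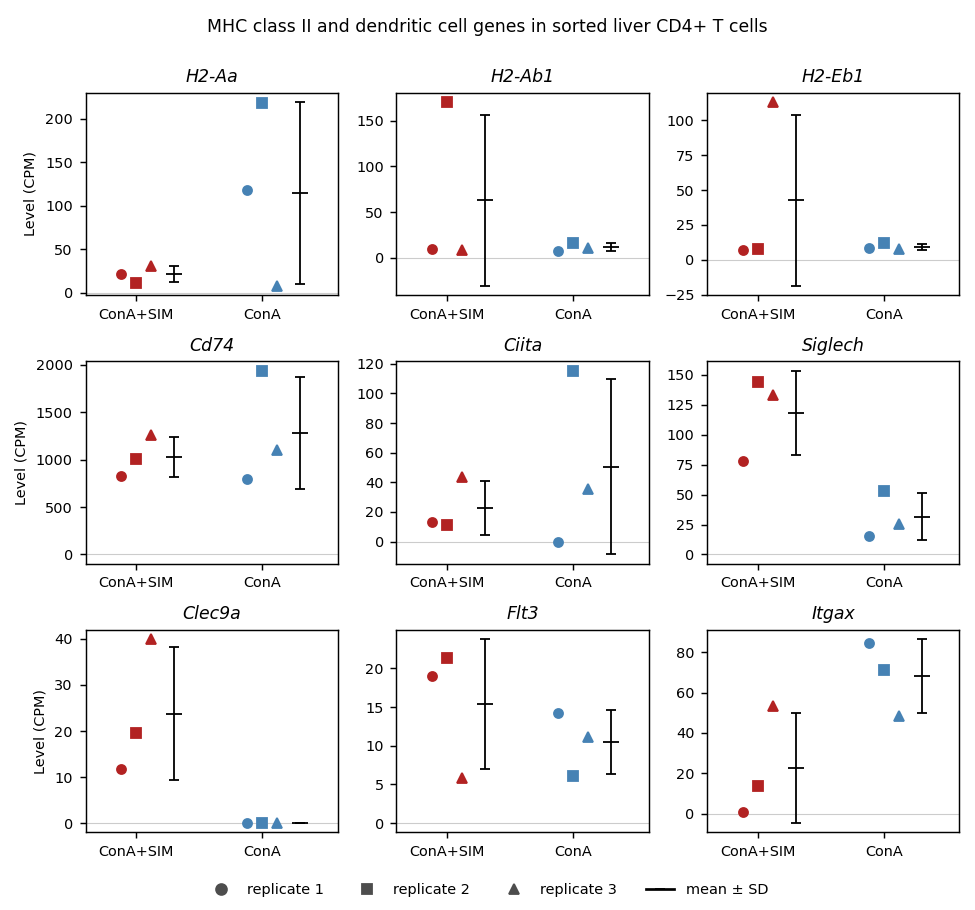
Level of each gene in CPM, counts scaled to a common library total, in the 3 ConA+SIM libraries (red) and the 3 ConA libraries (blue), with a symbol for each replicate number and the mean ± SD beside them. H2-Ab1 and H2-Eb1 each stand on 1 high ConA+SIM library, at 170 and 113 CPM, and Clec9a is at 0 in all 3 ConA libraries.

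The class II chain genes did not move together. H2-Aa (chromosome 17, 34282744 to 34287823, GRCm38), the I-A alpha chain, had 21.2, 11.6 and 30.1 CPM in ConA+SIM replicates 1 to 3, against 118, 218 and 7.75 CPM in ConA replicates 1 to 3. CPM are counts relative to the library total scaled by TMM, a method that lines up the bulk of genes between libraries. ConA replicates 1 and 2 were high, and ConA replicate 3 was the lowest of all 6 libraries, so the groups overlapped. Its log2 fold change was -2.45 ± 0.96 (SE, adjusted p = 0.483), and over 15 alternative settings it stayed below 0, from -2.98 to -0.66.

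H2-Ab1 (chromosome 17, 34263227 to 34269418), the beta chain that pairs with H2-Aa, had 9.34, 170 and 8.61 CPM in ConA+SIM replicates 1 to 3, against 7.95, 16.8 and 10.7 CPM in ConA. ConA+SIM replicate 2 alone was high, at 10.1 times the next library, and the other 5 libraries lay between 7.95 and 16.8 CPM. The log2 fold change was 2.41 ± 1.15 (adjusted p = 0.626), and it was -0.39 without ConA+SIM replicate 2.

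H2-Eb1 (chromosome 17, 34305867 to 34316674), the I-E beta chain, had 6.89, 7.41 and 113 CPM in ConA+SIM replicates 1 to 3, against 8.46, 11.9 and 7.67 CPM in ConA. Here ConA+SIM replicate 3 alone was high, at 9.49 times the next library. Its log2 fold change was 2.18 ± 1.23 (adjusted p = 0.741), and it was -0.39 without that library.

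A single library at 5 times or more the next highest was seen in 0.914% of tested genes, a rule set after these values were seen. Of the 356 tested genes whose symbol had further copy rows in the table, 5.06% met it. H2-Aa, H2-Ab1 and H2-Eb1 each had 3 such rows beside the plain row, and the other 6 genes had none. The extra rows held 14, 1 and 104 counts over all libraries for H2-Aa, H2-Ab1 and H2-Eb1, against 8398, 4048 and 3002 in the plain rows. The sources used here do not say how reads that match several copies were counted, so the levels of these 3 genes are uncertain. Whether this has a part in the single high libraries was not tested.

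Set per length of transcript, the ratio of H2-Aa to H2-Ab1, the 2 chains of I-A, was 2.44, 0.0728 and 3.76 in ConA+SIM replicates 1 to 3, against 15.9, 13.9 and 0.778 in ConA replicates 1 to 3. A ratio within a library does not depend on its scaling. The alpha chain stood above the beta chain in 4 libraries and below it in ConA+SIM replicate 2 and ConA replicate 3. The ratio of H2-Eb1 to H2-Ab1 per length lay between 0.515 and 0.774 in 4 libraries, ConA+SIM replicate 1 and all of ConA, and was 0.0316 in ConA+SIM replicate 2 and 9.55 in ConA+SIM replicate 3.

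**Figure D2:**
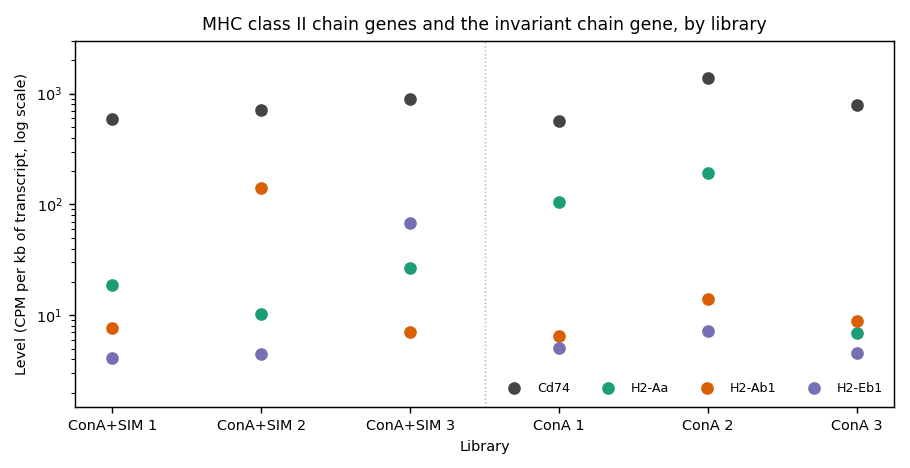
Level per kilobase of transcript (CPM per kb, log scale) of the 3 class II chain genes and of Cd74 in each library, ConA+SIM left and ConA right. Cd74 lies between 568 and 1376 CPM per kb in all libraries, whereas a different chain gene leads in ConA+SIM replicate 2 (H2-Ab1, 141), ConA+SIM replicate 3 (H2-Eb1, 67.8) and ConA replicate 2 (H2-Aa, 193).

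Cd74 (chromosome 18, 60803849 to 60812652), the invariant chain gene, was the most abundant of the 9 and the steadiest. It had 833, 1005 and 1256 CPM in ConA+SIM replicates 1 to 3, against 800, 1940 and 1107 CPM in ConA. ConA replicate 2 was the highest and ConA replicate 1 the lowest, with a 2.42-fold span, and the groups overlapped. On the log2 scale the fold change was -0.31 ± 0.31 (adjusted p = 0.999), and 0.099 without ConA replicate 2. Per length, Cd74 was 19.3, 4.59 and 8.77 times the sum of the 3 chain genes in ConA+SIM, against 4.90, 6.43 and 38.7 times in ConA.

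Ciita (chromosome 16, 10480014 to 10531064), the class II transactivator, had 13.2, 11.1 and 43.8 CPM in ConA+SIM replicates 1 to 3, against 0, 115 and 35.6 CPM in ConA. ConA held both the highest and the lowest library, and ConA+SIM lay between them. The 0 of ConA replicate 1 allows up to 0.130 CPM (3 counts, at 95% confidence, for counting error only). ConA+SIM over ConA gave a log2 fold change of -1.15 ± 1.67 (adjusted p = 0.999), whose sign turned in 4 of 15 alternatives. In 29.5% of tested genes, 1 library or more had 0 counts while another had 100 or more, so an empty library was common in this table.

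Siglech (chromosome 7, 55768154 to 55779448), an endocytic receptor of plasmacytoid dendritic cells, had 78.3, 144 and 133 CPM in ConA+SIM replicates 1 to 3, against 15.4, 53.1 and 25.6 CPM in ConA replicates 1 to 3. The lowest ConA+SIM library lay above the highest ConA library. Its mean was 118 ± 35.1 CPM in ConA+SIM and 31.4 ± 19.5 CPM in ConA (SD, n = 3 each), and the log2 fold change of 1.91 ± 0.53 missed the edgeR threshold (adjusted p = 0.263). DESeq2 called it (1.90 ± 0.49, adjusted p = 0.00554), and limma-voom gave an adjusted p of 0.0596. Its log2 fold change lay between 1.58 and 2.51 when libraries were left out or settings changed, 1.75 without ConA+SIM replicate 2, the library with most empty genes. An unadjusted p as small as that of Siglech was found in 2.00% of tested genes.

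Clec9a (chromosome 6, 129408862 to 129424764), the dead-cell receptor of cross-presenting dendritic cells, had 11.9, 19.6 and 39.9 CPM in ConA+SIM replicates 1 to 3, from 222, 336 and 747 counts, against 0 counts in each ConA library. Taking 3 counts per library as the most that a 0 allows, for counting error only, its mean was at least 179-fold higher in ConA+SIM. This bound was 118-fold without ConA+SIM replicate 3, and 78.5-fold from the lowest ConA+SIM library to the highest bound in ConA. The spread between libraries is left out of it. The edgeR test did not call Clec9a (adjusted p = 0.258), limma-voom gave 0.137, and DESeq2 called it (adjusted p = 7.28e-07). It passed the filter on low counts through its ConA+SIM libraries alone, and so had to differ between the groups. Of the tested genes, 10 (0.0952%) had 0 counts in all ConA libraries and 100 or more in every ConA+SIM library, and 25 (0.238%) showed such a pattern in either direction, by a rule set after these values were seen. Groups that did not overlap were seen in 17.8% of tested genes, 9.18% with ConA+SIM higher and 8.57% with ConA+SIM lower, and in 2 of the 9 genes, Siglech and Clec9a. For Clec9a the lack of overlap was set by the filter, since its ConA libraries were all at 0.

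Flt3 (chromosome 5, 147330741 to 147400489), the receptor for the growth factor of dendritic cell precursors, had 19.1, 21.3 and 5.77 CPM in ConA+SIM replicates 1 to 3, against 14.2, 6.14 and 11.1 CPM in ConA. The lowest library and the highest were both ConA+SIM. Its log2 fold change was 0.55 ± 1.61 (adjusted p = 0.999). Itgax (chromosome 7, 128129526 to 128150657), which encodes CD11c, had 0.694, 13.9 and 53.3 CPM in ConA+SIM replicates 1 to 3, against 84.6, 71.3 and 48.3 CPM in ConA. ConA+SIM replicate 3 lay above ConA replicate 3, so the groups overlapped, while ConA+SIM replicate 1 held 13 counts. The log2 fold change was -1.59 ± 1.11 (adjusted p = 0.883), and it kept its sign in all 15 alternatives, from -3.33 to -1.01.

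**Figure D3:**
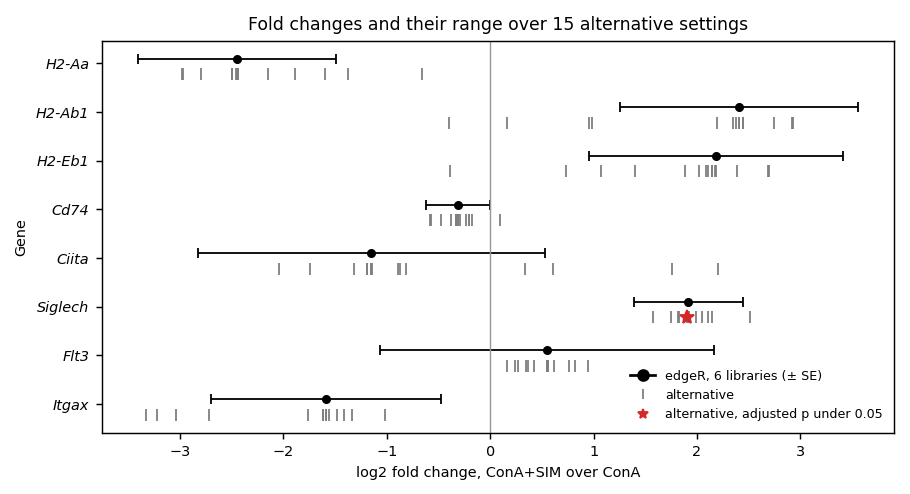
The log2 fold change of ConA+SIM over ConA for 8 of the genes (black, ± SE) with the values under 15 alternative settings as ticks and those past an adjusted p of 0.05 as red stars. Siglech stays between 1.58 and 2.51, whereas H2-Ab1, H2-Eb1, Cd74 and Ciita have ticks on both sides of 0. Clec9a, at 0 counts in ConA, is left out since a fitted fold against 0 depends on the prior count.

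Per length of transcript, Cd74 led in both groups, at 731 ± 151 CPM per kb in ConA+SIM and 910 ± 418 in ConA (SD, n = 3 each), and its libraries did not overlap those of the next gene. The order after it was H2-Ab1, Siglech, H2-Eb1, H2-Aa, Clec9a, Itgax, Flt3 and Ciita in ConA+SIM, and the libraries of each neighbouring pair overlapped there. In ConA it was H2-Aa, Itgax, Siglech, H2-Ab1, Ciita, H2-Eb1, Flt3 and Clec9a. In ConA the pair of H2-Eb1 and Flt3 and the pair of Flt3 and Clec9a did not overlap.

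In these sorted bulk samples, fewer cells of a type and less RNA per cell cannot be told apart. The other genes of class II presentation were read from a list of 29 symbols, of which 25 were in the table and 20 were tested. None passed in edgeR or DESeq2, 2 did at an unadjusted p under 0.05, 9 had positive and 11 negative log2 fold changes, and the median was -0.12, beside -0.041 over all tested genes. The endosomal proteases were the most abundant. Ctsb, which encodes cathepsin B, had 540, 447 and 653 CPM in ConA+SIM, against 924, 744 and 658 CPM in ConA (log2 fold change -0.50 ± 0.21, adjusted p = 0.535). It was the single gene of the 20 tested whose groups did not overlap, where 8.57% of all tested genes were lower in this way. Ctss, the cathepsin that trims the invariant chain, had 544, 230 and 589 CPM in ConA+SIM, against 614, 348 and 434 CPM in ConA (-0.035 ± 0.36, adjusted p = 0.999). Lgmn, an asparaginyl endopeptidase gene that starts that trimming, had 72.5, 75.6 and 129 CPM in ConA+SIM, against 296, 176 and 116 CPM in ConA (-1.08 ± 0.40, adjusted p = 0.438). Lgmn was highest in ConA replicate 1, and its groups overlapped.

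The factors that assemble on the X and Y boxes were read too. Rfx5, a subunit of the complex on the X box, had 24.5, 31.5 and 45.8 CPM in ConA+SIM, against 57.1, 42.1 and 35.4 CPM in ConA (log2 fold change -0.40 ± 0.55, adjusted p = 0.999). Nfyb, a subunit of the factor on the Y box, had 63.8, 85.7 and 85.4 CPM in ConA+SIM, against 47.2, 81.0 and 86.0 CPM in ConA (0.13 ± 0.39, adjusted p = 0.999). Both genes overlapped between the groups. Rfx5 and Nfyb were chosen for their roles after the values were seen. Of the other subunits, Rfxank had 34.9, 0.117 and 18.3 CPM in ConA+SIM, against 18.8, 25.9 and 0 CPM in ConA. Nfya had 3.26, 2.63 and 8.18 CPM in ConA+SIM, against 11.1, 3.42 and 15.3 CPM in ConA. Rfxap lay between 10.8 and 21.5 CPM and Nfyc between 35.3 and 69.7 CPM in all libraries, and the groups of each overlapped. The part of these factors in the class II levels was not tested.

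The peptide-loading genes H2-DMa, H2-DMb1, H2-DMb2, H2-Oa and H2-Ob also had 3 copy rows each, and their copy rows held counts that the plain rows lacked. With the copies summed, H2-DMb2 had 0.907, 20.6 and 2.30 CPM in ConA+SIM, against 0.345, 3.43 and 6.03 CPM in ConA, with ConA+SIM replicate 2 on top as for H2-Ab1. H2-Ob, with copies summed, had 2.35, 2.33 and 30.1 CPM in ConA+SIM, against 0.431, 12.5 and 1.26 CPM in ConA, with ConA+SIM replicate 3 on top as for H2-Eb1. H2-DMb1, with copies summed, followed neither, with 0.480 to 1.63 CPM over the ConA+SIM libraries, against 2.11, 11.8 and 0.394 CPM in ConA. H2-Oa, with copies summed, was highest in ConA+SIM replicate 3, at 5.50 CPM, and at 0.907 CPM or less in the other libraries. These patterns were read after the values were seen. H2-DMa lay between 0.788 and 6.14 CPM in all 6 libraries. Ifi30, a lysosomal thiol reductase gene, held 1 count in its plain row and 4263 in its copy row. With copies summed, it had 21.5, 24.2 and 28.8 CPM in ConA+SIM, against 35.6, 25.1 and 62.3 CPM in ConA (log2 fold change -0.72 ± 0.66, adjusted p = 0.987).

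The costimulatory ligands of antigen-presenting cells were low. Cd86 had 20.8, 48.1 and 43.0 CPM in ConA+SIM, against 30.4, 28.3 and 37.3 CPM in ConA. Cd80 had 31.9, 0 and 24.3 CPM in ConA+SIM, against 31.1, 3.42 and 0 CPM in ConA. Cd40, the receptor through which T cells license these cells, had 13.7, 0 and 22.1 CPM in ConA+SIM, against 19.3, 35.6 and 2.83 CPM in ConA. In all 3 the groups overlapped, and each was read after its values were seen.

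The other markers named here, of the cross-presenting type or of conventional dendritic cells at large, differed in direction. None of them was higher in ConA+SIM without overlap. Which cell type the Clec9a counts came from was not tested. Xcr1, a chemokine receptor of the cross-presenting type, had 4.91, 32.1 and 5.83 CPM in ConA+SIM, against 0.0432, 0 and 17.0 CPM in ConA (log2 fold change 1.33 ± 2.67, adjusted p = 0.999). Batf3, the factor that this cell type needs, had 0, 6.65 and 0 CPM in ConA+SIM, against 39.5, 0 and 11.9 CPM in ConA (-2.95 ± 3.23, adjusted p = 0.999). Irf8, a second such factor, had 188, 216 and 155 CPM in ConA+SIM, against 273, 345 and 243 CPM in ConA, lower without overlap (log2 fold change -0.62 ± 0.25, adjusted p = 0.496). Zbtb46, a factor of conventional dendritic cells, had 0.107, 0 and 8.55 CPM in ConA+SIM, against 0, 16.2 and 6.53 CPM in ConA (-1.39 ± 3.11, adjusted p = 0.999). Itgae was positive (1.02 ± 2.98) and Wdfy4 negative (-0.41 ± 0.73), and the groups of each overlapped. Cadm1 reached 27.7 CPM in ConA+SIM replicate 2 and 8.03 CPM in ConA replicate 3, and Snx22 5.83 CPM in ConA+SIM replicate 3. Both were at 0 elsewhere and were not tested. Itgae, Wdfy4, Cadm1 and Snx22 were named after their values were seen.

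Tlr3, a sensor of double-stranded RNA in these cells, had 0 counts in every ConA+SIM library, against 3.45, 13.6 and 10.6 CPM in ConA. With 3 counts per library as the most that a 0 allows, for counting error only, its mean was at least 55.8-fold lower in ConA+SIM. The direction was the reverse of Clec9a, and this bound too leaves out the spread between libraries. Tlr3 did not pass in edgeR (adjusted p = 0.400), and DESeq2 called it (adjusted p = 0.0145). It passed the filter on low counts through its ConA libraries alone, and was named after its values were seen. Of 21 genes on the dendritic cell list 15 were tested and 0 passed in edgeR (2 at an unadjusted p under 0.05), with 6 positive and 9 negative log2 fold changes and a median of -0.39. Its summed level was 1752, 2167 and 1847 CPM in ConA+SIM, against 1994, 2370 and 1848 CPM in ConA. Its most abundant members, Irf8 among them, are not restricted to dendritic cells. Ccr7, a lymph node homing receptor that T cells also make, had 418, 748 and 367 CPM in ConA+SIM, against 310, 903 and 640 CPM in ConA. Id2, a transcriptional inhibitor also made by T cells, had 624, 464 and 544 CPM in ConA+SIM, against 499, 404 and 340 CPM in ConA, and Cst3, which encodes cystatin C, lay between 144 and 339 CPM in all libraries. Ccr7, Id2 and Cst3 each overlapped between the groups.

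Markers of plasmacytoid dendritic cells were mostly higher in value beside Siglech. Of 18 listed genes 15 were tested and 0 passed in edgeR (3 at an unadjusted p under 0.05, and Plac8 and Ly6c2 with DESeq2), with 11 positive and 4 negative log2 fold changes and a median of 0.79, and 5 had groups that did not overlap (Bst2, Ccr9, Klk1, Ly6c2 and Plac8), all with ConA+SIM higher, where 9.18% of all tested genes were. Plac8 had 773, 625 and 740 CPM in ConA+SIM, against 406, 347 and 228 CPM in ConA (log2 fold change 1.12 ± 0.24, adjusted p = 0.123; adjusted p = 1.29e-04 with DESeq2). Ly6c2 had 463, 356 and 562 CPM in ConA+SIM, against 295, 200 and 200 CPM in ConA (0.99 ± 0.26, adjusted p = 0.237). Both genes are also made by monocytes and by activated T cells. Runx2, the third most abundant, overlapped, with 69.7, 74.0 and 62.5 CPM in ConA+SIM, against 126, 44.6 and 56.7 CPM in ConA. The 4 negative log2 fold changes were those of Ptprs (-0.88), Spib (-0.41), Tlr7 (-0.31) and Runx2 (-0.14), and the groups of each overlapped.

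The factors that define the plasmacytoid type were less even. Tcf4 had 9.50, 59.6 and 64.8 CPM in ConA+SIM, against 16.0, 37.5 and 26.5 CPM in ConA (log2 fold change 0.74 ± 0.79, adjusted p = 0.999). Spib had 55.6, 0 and 65.0 CPM in ConA+SIM, against 29.9, 97.6 and 33.1 CPM in ConA. Tlr9, the DNA sensor of these cells, was at 0 in 5 libraries and at 5.09 CPM in ConA replicate 2. Spib and Tlr9 were picked after their values were seen. The summed level of the list was 1893, 1550 and 2062 CPM in ConA+SIM, against 1289, 1139 and 734 CPM in ConA. Without Ly6c2 and Plac8 the sum was 657, 569 and 760 CPM in ConA+SIM, against 589, 592 and 306 CPM in ConA, and the groups overlapped. The part of such cells in the values of Siglech was not tested.

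**Figure D4:**
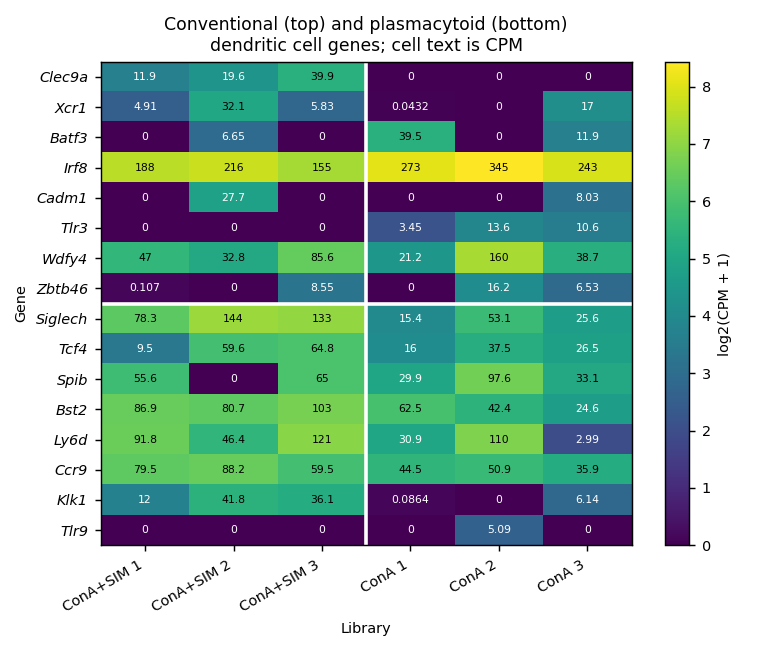
Level of genes of conventional dendritic cells (top 8 rows) and of plasmacytoid dendritic cells (bottom 8 rows) in each library, coloured by log2(CPM + 1) with the CPM written in each cell, ConA+SIM left and ConA right. Clec9a is at 0 in ConA and Tlr3 at 0 in ConA+SIM, while Siglech, Bst2, Ccr9 and Klk1 are higher in each ConA+SIM library than in any ConA library. The rows are a selection from the lists. Of the plasmacytoid list, 11 log2 fold changes were positive and 4 negative, and of the 4 only Spib is drawn (not Ptprs, Tlr7 and Runx2).

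B cells and macrophages also carry class II, and their markers varied between libraries. The B cell and plasma cell list, with 14 of 18 genes in the table and 13 tested, had 0 calls in edgeR, DESeq2 or at an unadjusted p under 0.05, and a median log2 fold change of 0.042. Its summed level was 686, 745 and 1269 CPM in ConA+SIM, against 159, 1818 and 305 CPM in ConA. ConA replicate 2, where Cd74, Ciita and H2-Aa were highest, held the largest sum, and ConA replicate 1, where Ciita was at 0, the smallest. H2-Aa did not keep to this order, since it was second highest, at 118 CPM, in ConA replicate 1. Ms4a1, the gene of the B cell antigen CD20, had 148, 116 and 286 CPM in ConA+SIM, against 21.3, 353 and 26.1 CPM in ConA. Cd79a, a chain of the B cell receptor complex, was likewise highest in ConA replicate 2, at 199 CPM. Jchain, which joins the antibodies that plasma cells secrete, had 111, 260 and 207 CPM in ConA+SIM, against 15.1, 218 and 115 CPM in ConA. The part of B cells in the class II levels was not tested.

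The Kupffer cell, macrophage and monocyte list, with 22 genes and 18 tested, had 0 calls in edgeR (1 at an unadjusted p under 0.05, and Ly6c2 with DESeq2), 4 positive and 14 negative log2 fold changes, and a median of -1.05. Of the 18, 4 were lower in ConA+SIM without overlap (Cd68, C1qa, Fcgr4 and Itgam), where 8.57% of all tested genes were, and 1 was higher (Ly6c2). Cd68, a lysosomal glycoprotein gene of macrophages, had 21.6, 0 and 31.5 CPM in ConA+SIM, against 81.7, 93.0 and 66.3 CPM in ConA (log2 fold change -2.18 ± 1.40, adjusted p = 0.834). Itgam, which encodes CD11b, had 46.1, 20.3 and 57.8 CPM in ConA+SIM, against 145, 70.1 and 61.6 CPM in ConA (-1.16 ± 0.53, adjusted p = 0.593). These genes were picked after their values were seen. Its summed level was 2468, 1148 and 2860 CPM in ConA+SIM, against 3816, 2045 and 1859 CPM in ConA. Itgax was lowest in ConA+SIM replicate 1, and the macrophage sum was lowest in ConA+SIM replicate 2, so the 2 did not share their lowest library; both were highest in ConA replicate 1. The defining marker Adgre1 had 13.3, 0.0583 and 24.0 CPM in ConA+SIM, against 46.7, 38.0 and 13.8 CPM in ConA. Clec4f, a second one, had 2.14, 0 and 2.89 CPM in ConA+SIM, against 15.2, 12.2 and 0 CPM in ConA. The groups of both overlapped, and ConA+SIM replicate 2 was the library with most empty genes. Csf1r, the receptor for the macrophage growth factor, had 129, 24.6 and 46.7 CPM in ConA+SIM, against 113, 140 and 109 CPM in ConA. The most abundant member was Lyz2, the lysozyme gene of myeloid cells, at 885, 173 and 811 CPM in ConA+SIM, against 1596, 621 and 565 CPM in ConA. Ccr2, a chemokine receptor of monocytes and of effector T cells, had 513, 418 and 894 CPM in ConA+SIM, against 584, 353 and 342 CPM in ConA. The part of macrophages in the levels of Itgax and of the class II genes was not tested.

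Sinusoidal endothelial cells of the liver carry class II at a low level. All 12 of their listed markers were tested, 0 passed in edgeR (2 at an unadjusted p under 0.05, and Stab1 with DESeq2), and all 12 had negative log2 fold changes, with a median of -0.84. The groups of 1 of the 12, Stab1, did not overlap, with 25.5, 13.1 and 54.7 CPM in ConA+SIM, against 55.7, 229 and 79.6 CPM in ConA. Over all tested genes, 8.57% were lower in ConA+SIM without overlap, so this count is near that share. Together they summed to 418, 888 and 830 CPM in ConA+SIM, against 469, 2540 and 823 CPM in ConA, again with ConA replicate 2 on top. Stab2, a scavenger receptor that defines these cells, had 16.3, 63.8 and 44.0 CPM in ConA+SIM, against 0, 222 and 22.9 CPM in ConA. The most abundant markers, Pecam1, Fcgr2b and Clec4g, were also highest in ConA replicate 2, at 264, 302 and 287 CPM. Their part in the class II levels was not tested.

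**Figure D5:**
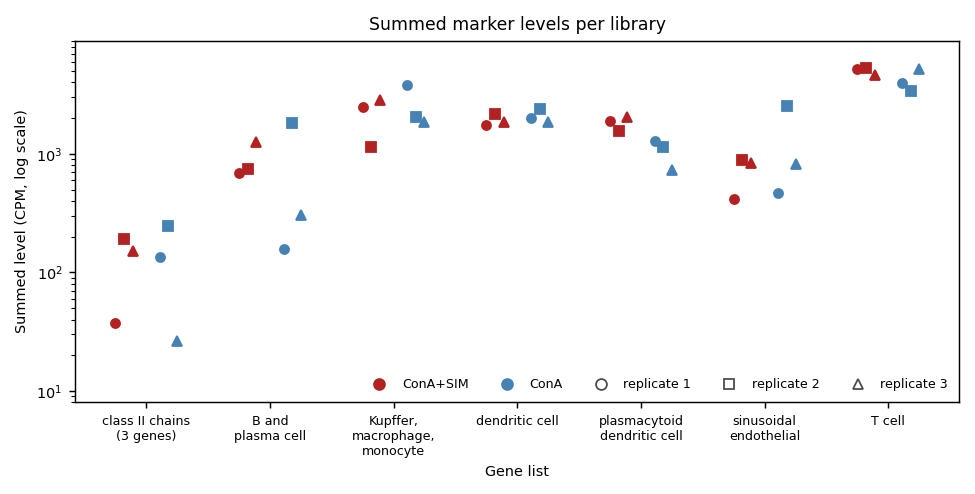
Summed level (CPM, log scale) in each library of the 3 class II chain genes and of 6 marker lists, ConA+SIM in red on the left of each pair and ConA in blue on the right, with a symbol for each replicate number. The B cell sum spans 159 to 1818 CPM within ConA, and the T cell sum stays between 3420 and 5285 CPM in all 6 libraries.

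Genes of T cells were present in every library. The 14 T cell genes summed to 5149, 5285 and 4595 CPM in ConA+SIM, against 3977, 3420 and 5155 CPM in ConA, and 0 passed in edgeR (3 at an unadjusted p under 0.05, and Cd247, Cd3d and Cd3g with DESeq2). The same 3 genes were higher in ConA+SIM without overlap, where 9.18% of all tested genes were. Cd247, the zeta chain of the T cell receptor complex, had 548, 736 and 567 CPM in ConA+SIM, against 276, 234 and 331 CPM in ConA (log2 fold change 1.14 ± 0.22, adjusted p = 0.0743 with edgeR, 0.0101 with limma-voom and 0.0311 with quality weights). Cd3g had 876, 786 and 993 CPM in ConA+SIM, against 645, 433 and 629 CPM in ConA, and Cd3d had 596, 553 and 702 CPM in ConA+SIM, against 312, 318 and 453 CPM in ConA. Over the list, 7 log2 fold changes were positive and 7 negative. Cd247 was picked after its values were seen. Cd3e had 171, 295 and 156 CPM in ConA+SIM, against 223, 154 and 409 CPM in ConA, and Cd4 lay between 441 and 766 CPM in all libraries. The NK receptor gene Ncr1 was at 0 in all 6 libraries, and Cd8a at 15.9 CPM or less. Klrb1c, which encodes NK1.1, had 43.5, 43.5 and 39.0 CPM in ConA+SIM, against 6.69, 17.6 and 20.0 CPM in ConA (log2 fold change 1.51 ± 0.77, adjusted p = 0.672). Cd8b1 reached 54.1 CPM and Eomes, a factor of NK and memory T cells, 23.1 CPM. Total counts per library ran from 17549429 to 25031862. The share of tested genes at 0 counts was 18.4% in ConA+SIM replicate 2 and between 2.76% and 9.98% in the other libraries.

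The genes whose pattern over the 6 libraries was most like that of a member were taken by Pearson's r of log2(CPM + 1), among 8668 other genes with a mean of at least 10 CPM. With so many genes and 6 libraries, high values of r are a description of these libraries. For Ciita they were St6gal1 (r = 0.999), Tnfrsf13c (0.995), Dennd4c, Arap3 and Adgrl4. For H2-Aa they were Agtpbp1 (0.974), Acvr2a, Serpina3g, Nup188 and Fcsk, and for Itgax Taldo1 (0.993), Lage3, 4932438A13Rik, Pttg1ip and Washc5. For Siglech they were Cab39 (0.997), Rasa1, Usp16, Morf4l2 and Aimp1. For Clec9a they were Zfp709 (0.996), Cytip, P2ry10, Cd226 and Nme2, and for Flt3 Wwp1 (0.983), Ndufs4, Csrnp1, Hsf2 and Spred2. None of these 30 genes was a member or on a marker list. The lists hold only some genes of each cell type, so this does not show which cells make the 30 genes.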

How the data were processed

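The deposited table holds raw counts per gene, whole numbers that the authors did not normalize, with 1 column per sample. The submitters' processing notes name the aligner HISAT2 2.1.0 and the build GRCm38; the counting tool, annotation release, strand setting and treatment of reads with several matches are not given there, so overlapping and antisense genes cannot be separated. Column titles gave group and replicate.

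From these counts, genes were kept with filterByExpr of edgeR 4.0.16 (10509 of 23505 rows), scaled with TMM and compared, ConA+SIM over ConA, by its robust quasi-likelihood F test (R 4.3.3; no covariate). Benjamini-Hochberg adjustment ran over all tested genes, with a threshold of 0.05. SE is the log2 fold change over the root of F. CPM use the TMM-scaled total of the tested genes. Transcript lengths are the longest coding transcript of GENCODE M21. Marker symbols were read as listed, without copy rows unless stated. The procedure was tested on simulated counts.

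Members, lists and tests were chosen with earlier results of these data known. Named are all members; defining markers and, of each list, its most abundant genes; and the 5 genes most like each of 6 members; others are said to be chosen later. Alternatives were RLE scaling, no filter, 5 CPM in 3 libraries, DESeq2 1.42.0, limma-voom (limma 3.58.1) with and without quality weights, a replicate block, offsets for transcript length, and leaving out each library; summing copy rows was added after seeing the data.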

Additional observations from a re-analysis of the deposited data

How the results depend on the processing

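Of the 9 genes, 0 passed in 14 of 15 alternatives, and 2, Siglech and Clec9a, passed with DESeq2. For H2-Ab1 and H2-Eb1, DESeq2 gave a log2 fold change but neither a p nor an adjusted p, so it tested 7 of the 9. Over all genes, 57 calls became 540 with DESeq2, 128 with limma-voom, 137 with quality weights, 0 with transcript length offsets and 0 with the replicate block, and 0 to 3 when 1 library was left out. Calls among the dendritic cell, B cell and macrophage markers were 0 of 60 tested. They became 3 of 58 with DESeq2 (Plac8, Ly6c2 and Tlr3), where 5.21% of all genes were called. With limma-voom they were 1 of 60 (Plac8), beside 1.22% of all genes. With quality weights they were 2 of 60 (Plac8 and Ly6c2), beside 1.30% of all genes. The other presentation genes had 0 calls throughout. The log2 fold change of Ciita, -1.15, was 2.21 with limma-voom, 1.76 with quality weights and 0.60 with the replicate block. With 1 library left out, Ciita ran from -2.05 to 0.33, H2-Ab1 from -0.39 to 2.93, H2-Eb1 from -0.39 to 2.69 and Cd74 from -0.57 to 0.099. H2-Aa, Siglech, Clec9a, Flt3 and Itgax kept their sign in all 15 alternatives. Same-numbered libraries of the groups did not deviate together (correlations of -0.014 to 0.022), so the block has no basis in pairing; the cause of the other changes was not tested. Counting error alone leaves a 0 uncertain up to 0.118 to 0.175 CPM, by depth.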
